A study of Mus musculus with 16 samples.

Results

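Malat1, Neat1, Kcnq1ot1, Gas5, Snhg1, Snhg8, Snhg12, Epb41l4aos, Dleu2 and Mir17hg are long RNAs that stay largely in the nucleus or that carry the sequence of small RNAs within their own transcripts. These 10 genes were chosen by symbol, and the stated reason for the choice was that Malat1 varies between replicates of Ago2-bound RNA. Of these, 8 were matched to the count table by symbol and Epb41l4aos by its Ensembl identifier under an older spelling, which gave 9 of the 46078 genes listed, and no row was matched to Snhg1, so its level was not analysed here. The RNA came from engineered mouse juxtaglomerular (JG) cells, a cultured line of the renin-producing cells of the kidney that carries YFP under the renin promoter in every group. Cultures received miR-106b or a control by transfection and were collected 48 h later, and either polyA RNA (of cytoplasm and nucleus together) or RNA immunoprecipitated with Ago2 (Ago2-IP) was sequenced. Ago2 is the Argonaute protein that holds miRNAs and their target RNAs in the RNA-induced silencing complex. The 4 groups (control and miR-106b, each as polyA RNA and as Ago2-IP RNA) have 4 replicates each. The study's methods call the replicates biological, the labels do not say how they were separated, and p-values measure the spread between these libraries. Cells for polyA RNA were lysed in the dish and cells for Ago2-IP were trypsinized first, so RNA kind and harvest cannot be told apart.

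The libraries held 2579086 to 9459585 counted reads, and levels are given as CPM, the counts per 1000000 of that total. The labelled cell type did not match all of its markers, since Ren1, the renin gene, had 0 counts in every library. Other markers of JG and mural cells were present. The 10 such markers, Ren1 included, summed to 1458 to 1644 CPM in polyA control and 999 to 1034 CPM in Ago2-IP control. In polyA control replicate 1, Acta2 was at 779 CPM and Tagln at 506 CPM, while Akr1b7 was at 0.159 CPM. Cardiac muscle markers were high in all groups, with a summed level of 15 genes of 19187 to 27289 CPM in polyA control, 37414 to 64767 CPM in polyA miR-106b and 84304 to 92733 CPM in Ago2-IP, although Myl7, 1 of the 15, had 0 to 8 counts per library. No cardiac marker was at 0 in a whole group. These markers therefore moved with both comparisons below, and their part in the results was not tested. Of 14 cardiac markers tested, 14 were higher with miR-106b in polyA RNA, where 19.0% of all genes were, and 14 were higher in Ago2-IP than in polyA RNA of control cells, where 35.1% were.

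Long nuclear RNAs organize structures inside the nucleus. Malat1 collects in nuclear speckles, Neat1 is the scaffold on which paraspeckles form, and Kcnq1ot1 is transcribed from an imprinted locus and silences its neighbours on the same chromosome. Gas5, the Snhg genes and Epb41l4aos are host genes whose introns are cut into snoRNAs, which guide the chemical modification of ribosomal RNA, while the spliced remainder is often short-lived and cleared by nonsense-mediated decay. Dleu2 and Mir17hg are host transcripts from which miRNA hairpins are cut in the nucleus. An RNA that stays in the nucleus is largely separate from the cytoplasmic pool of Ago2.

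Mir17hg is the host of a miRNA cluster related to the transfected miRNA, and the mature sequences show this kinship. The sequences are those of RefSeq on GRCm38.p6, written 5′ to 3′ with the seed (bases 2 to 8) in capitals. The first 3 share a seed, and the pair of miR-19 sequences share another.
miR-106b-5p (transfected): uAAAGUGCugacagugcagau
miR-17-5p (Mir17hg): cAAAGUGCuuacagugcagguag
miR-20a-5p (Mir17hg): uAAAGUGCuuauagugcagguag
miR-18a-5p (Mir17hg): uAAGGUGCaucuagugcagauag
miR-19a-3p (Mir17hg): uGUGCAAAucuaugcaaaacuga
miR-19b-3p (Mir17hg): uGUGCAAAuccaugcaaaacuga
miR-92a-3p (Mir17hg): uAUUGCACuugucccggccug
miR-16-5p (Dleu2): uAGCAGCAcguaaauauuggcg
The RefSeq table held 6 hairpins of Mir17hg and 1 of Dleu2, which also hosts Mir15a.

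The match to the miR-106b seed, GCACTTT, was searched on the transcribed strand of the longest annotated transcript of each gene (GENCODE M21, GRCm38). It occurred 3 times in Neat1 (20771 bases) and 6 times in Kcnq1ot1 (93092 bases, a longer model than the locus of the count table, outside which 1 of the 6 lies), and it did not occur in the longest transcripts of Malat1, Gas5, Snhg1, Snhg8, Snhg12, Epb41l4aos, Dleu2 and Mir17hg. Among 14853 tested genes with a transcript, 22.6% held the match, at a mean of 0.0677 matches per kilobase. The density was 0.144 per kilobase in Neat1 and 0.0645 per kilobase in Kcnq1ot1. The 3 matches of Neat1 lie on the minus strand of chromosome 19 in its exon and are shown with 10 bases on either side, the match in capitals.
chr19:5836979-5836985: tatatcttagGCACTTTgcatatggaa
chr19:5834422-5834428: ttggcagccaGCACTTTgaccagctga
chr19:5833601-5833607: cttaattccaGCACTTTgggggcaagt
A match of these letters is a description of the sequence and not a measured site of binding.

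Malat1 was by far the most abundant of the 9 RNAs per length. In polyA control its level was 300.4 ± 9.49 CPM per kilobase of exon (SD, n = 4), followed by Neat1 with 46.9 ± 2.98, Snhg8 with 33.9 ± 2.88, Epb41l4aos with 20.4 ± 2.102, Gas5 with 20.1 ± 1.58, Snhg12 with 7.01 ± 0.949, Kcnq1ot1 with 0.680 ± 0.0582, Dleu2 with 0.437 ± 0.211 and Mir17hg with 0.395 ± 0.0712 CPM per kilobase. Epb41l4aos and Gas5 overlapped in their libraries, as did Dleu2 with both Kcnq1ot1 and Mir17hg, and the other neighbours in this order did not. In Ago2-IP control the order of Malat1 (295 ± 134), Neat1 (57.6 ± 1.14) and Snhg8 (7.80 ± 1.38) stayed as in polyA control on the same scale, while Snhg8 now overlapped Epb41l4aos (5.16 ± 1.51), which overlapped Gas5 (3.90 ± 0.590). The 9 RNAs together took 0.209% to 0.479% of the counts of a library.

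**Figure D1:**
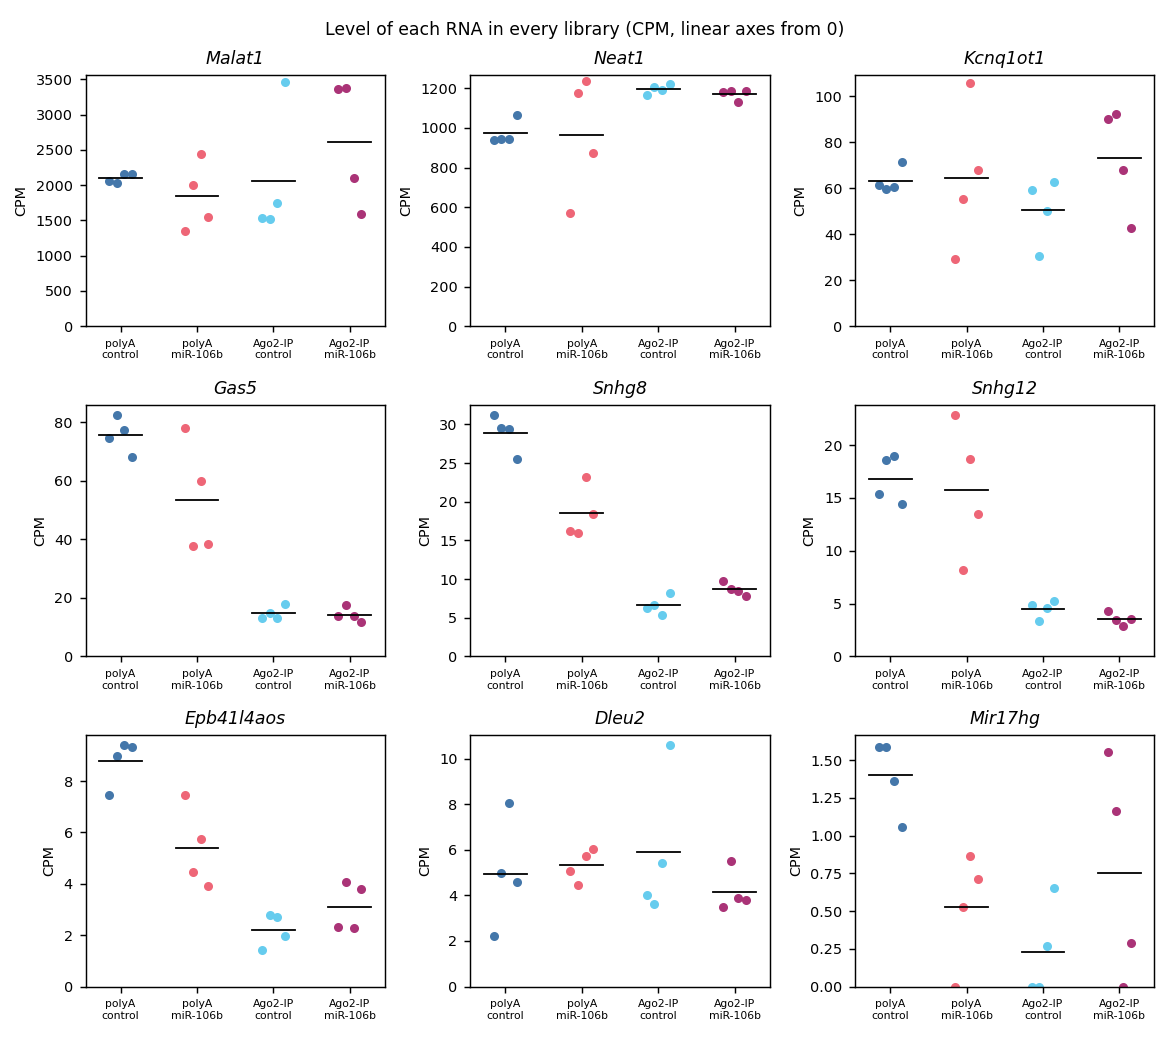
Level in CPM of each RNA (1 panel each, linear axis from 0) in the 16 libraries, with the 4 replicates of each group side by side in numerical order and the group mean as a line. The snoRNA hosts sit lower in Ago2-IP than in polyA RNA, except that Epb41l4aos overlaps in miR-106b cells (2.27 to 4.06 against 3.91 to 7.46 CPM). Neat1 is nearly level across Ago2-IP libraries, and Malat1 spans 1516 to 3462 CPM among them.

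Neat1 had nearly the same level in all Ago2-IP libraries and, of the 8 RNAs tested, was the one called higher there than in polyA RNA, as were 35.1% of all genes in control cells and 21.9% in miR-106b cells. Neat1 (ENSMUSG00000092274, chromosome 19, 5824708 to 5845478 in GRCm38, a lincRNA) was at 941, 943, 946 and 1067 CPM in polyA control. With miR-106b the polyA libraries were at 571, 1176, 1237 and 875 CPM, so that the treated group lay on both sides of the control group. In Ago2-IP it was at 1166, 1207, 1191 and 1222 CPM in control and at 1183, 1187, 1131 and 1187 CPM with miR-106b. All 8 Ago2-IP libraries were above all 4 polyA control libraries, and polyA miR-106b replicate 3 was above every one of them. The Ago2:polyA difference was 0.61 on the log2 scale in control cells (SE 0.145, adjusted p = 0.000662, edgeR's quasi-likelihood test) and 0.44 in miR-106b cells (SE 0.145, adjusted p = 0.0169), both within the middle 50% of all genes, whose upper ends were 0.99 and 0.51. These differences depend on the scaling: with library size only they were 0.30 (adjusted p = 0.0842, edgeR) and 0.28 (adjusted p = 0.132), and with TMM within each RNA kind 0.31 (adjusted p = 0.0629) and 0.28 (adjusted p = 0.123). Without the 4 Ago2-IP libraries richest in a repeat-like gene, Gm10800 (described below), the value in miR-106b cells was 0.46, from 1 Ago2-IP miR-106b library whose spread is assumed to be that of the other groups (adjusted p = 0.233, edgeR). The miR-106b effect was 0.00 (SE 0.194) in polyA RNA and -0.03 (SE 0.0353) in Ago2-IP RNA, both on the log2 scale, with adjusted p of 0.991 and 0.955 in edgeR's test.

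Malat1 differed between libraries of the same group, and since it was chosen for this, its Ago2-IP values are a description without a test. Malat1 (ENSMUSG00000092341, chromosome 19, 5795690 to 5802672, a lincRNA) was at 2060.4, 2023, 2156 and 2151 CPM in polyA control and at 1355, 2008, 2443 and 1551 CPM in polyA miR-106b. The control libraries agreed within 1.07-fold, whereas the treated libraries spanned 1.80-fold and lay on both sides of them. In polyA RNA the miR-106b effect was -0.17 on the log2 scale (SE 0.164, adjusted p = 0.428, edgeR's test). In Ago2-IP it was at 1529.7, 1516, 1745 and 3462 CPM in control and at 3356, 3373, 2098 and 1589 CPM with miR-106b. Control replicate 4 thus stood with miR-106b replicates 1 and 2, and miR-106b replicate 4 stood with control replicates 1 and 2. The range over the 8 libraries was 2.28-fold, and the SD of log2 CPM, 0.545, was exceeded by 2.81% of the 10556 genes that averaged 5 CPM or more in Ago2-IP, whose median SD was 0.175. The fitted Ago2:polyA difference of Malat1 was 0.29 on the log2 scale in control cells, but -0.07 without Ago2-IP control replicate 4 and -0.02 with library size only. It was 0.65 in miR-106b cells, and the difference between miR-106b and control within Ago2-IP was 0.34, or 0.71 without Ago2-IP control replicate 4. Without the 4 Ago2-IP libraries richest in Gm10800, which leave 1 Ago2-IP miR-106b library, these 2 values were -0.05 and -0.0067, and the difference in control cells was -0.17.

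Kcnq1ot1 spread across Ago2-IP libraries nearly as much as Malat1. Kcnq1ot1 (ENSMUSG00000101609, chromosome 7, 143212155 to 143296549, antisense to Kcnq1) was at 61.6, 59.7, 60.5 and 71.3 CPM in polyA control and at 29.4, 55.4, 105.7 and 67.8 CPM in polyA miR-106b. In Ago2-IP it was at 59.4, 30.7, 50.04 and 62.8 CPM in control and at 90.0, 92.2, 68.0 and 42.8 CPM with miR-106b. The highest polyA miR-106b library was replicate 3 and the lowest replicate 1, as for Neat1 and Malat1. The groups overlapped in every comparison, and none passed edgeR's test, with log2 differences of 0.04 (SE 0.282, adjusted p = 0.934) for miR-106b in polyA RNA, 0.52 (SE 0.328, adjusted p = 0.916) in Ago2-IP RNA and 0.00 (SE 0.324, adjusted p = 0.992) for Ago2:polyA in control cells. For Kcnq1ot1 the difference of 0.52 turned to -0.13 without the 4 Gm10800-rich libraries, and that of 0.00 to -0.31 with library size only. The SD of log2 CPM over the 8 Ago2-IP libraries was 0.529 for Kcnq1ot1 and 0.499 for Dleu2, exceeded by 2.96% and 3.56% of genes, against 0.0332 for Neat1, exceeded by 99.6%. The value of Dleu2 rests on 9 to 49 counts per library and on control replicate 4, at 10.6 CPM against 3.49 to 5.51 CPM in the others. Gas5 (0.203) and Snhg8 (0.263) lay between. The counting was without strand, so reads of Kcnq1ot1 and of Kcnq1 on the other strand cannot be told apart where the genes overlap. Kcnq1, a potassium channel gene, was higher by 1.22 on the log2 scale with miR-106b in polyA RNA (SE 0.202, adjusted p = 0.000796, edgeR's test), while Kcnq1ot1 did not pass.

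The Ago2-IP libraries with much Malat1 also held more of a repeat-like gene and of some small RNAs without a polyA tail. Gm10800, a gene of satellite-like sequence, was at 1522, 225, 1647 and 11168 CPM in Ago2-IP control and at 10644.5, 15036, 7705 and 1482 CPM in Ago2-IP miR-106b. In polyA RNA it was at 2442 to 3403 CPM in control and at 646, 2404, 7293 and 5633 CPM with miR-106b, where replicate 1 was the lowest and replicate 3 the highest, as for Malat1, Neat1 and Kcnq1ot1. Rpph1, the RNA of RNase P, was at 62.8, 70.1, 1709 and 2646 CPM in Ago2-IP control and at 1913, 4762, 1560.0 and 809 CPM with miR-106b. Rmrp, the RNA of RNase MRP, went from 17.9 to 813 CPM, and Rn7sk, which holds back a transcription elongation factor, from 39.4 to 142 CPM. The highest library was miR-106b replicate 2 for all 4, whereas Malat1 was highest in control replicate 4. Other small RNAs of this kind did not follow Malat1 within Ago2-IP control. There Rny1 was at 12.8 CPM in replicate 2, where Malat1 was lowest, and at 7.58 CPM in replicate 4. Rny3 was at 6.70 and 6.93 CPM in the same libraries. Over these 8 libraries the Pearson r of log2 CPM with Malat1 was 0.930 for Rn7sk, 0.873 for Gm10800, 0.793 for Rmrp and 0.761 for Rpph1, and 0.792 for Kcnq1ot1, 0.735 for Snhg8, 0.733 for Gas5, 0.522 for Dleu2 and 0.212 for Neat1. These are descriptions over libraries that share their depth and their group. Summed over 8 such small RNA genes, the level was 306 to 388 CPM in polyA control, 229 to 461 CPM in polyA miR-106b, 139.6 to 3266 CPM in Ago2-IP control and 1018 to 5750.3 CPM in Ago2-IP miR-106b, and its part in the Malat1 values was not tested.

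**Figure D2:**
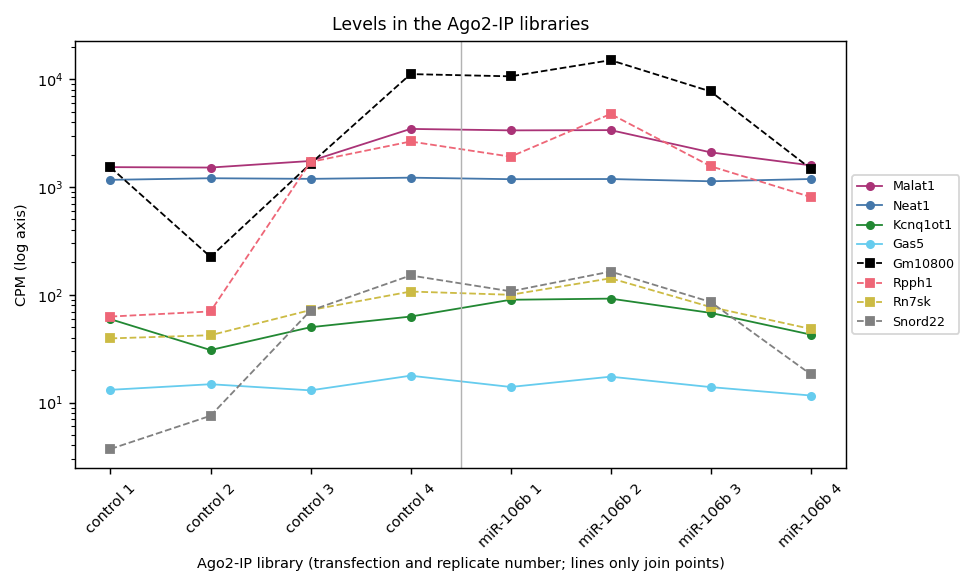
Level in CPM (log axis) of 4 of the long RNAs (circles) and of Gm10800, Rpph1, Rn7sk and Snord22 (squares) in the 8 Ago2-IP libraries, where lines only join points. Neat1 stays between 1131 and 1222 CPM, while Malat1 is high in control replicate 4 and in miR-106b replicates 1 and 2, and Kcnq1ot1, at 62.8 CPM in control replicate 4, is highest in miR-106b replicates 1 and 2.

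Among 10555 genes that averaged 5 CPM or more in Ago2-IP, the 5 whose log2 level followed Malat1 most closely over the 8 libraries were Eif3a (r = 0.991), Cald1 (0.988), Ddx21 (0.984), Tulp1 (0.983) and Akap12 (0.983). Eif3a encodes a subunit of a translation initiation factor and ranged from 165 to 359 CPM. Cald1 encodes an actin-binding protein and ranged from 103 to 419 CPM, and Akap12, which encodes a scaffold for protein kinase A, ranged from 90.2 to 414 CPM. Ddx21, a nucleolar RNA helicase gene, ranged from 47.7 to 78.5 CPM, and Tulp1 from 3.43 to 15.9 CPM. Kcnq1ot1 stood at rank 337 in this order and Neat1 at rank 2936.

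The 4 snoRNA hosts were all depleted in Ago2-IP relative to polyA RNA of control cells, where 34.6% of all genes were lower. Gas5 (ENSMUSG00000053332, chromosome 1, 161034422 to 161038539), a growth arrest transcript with many snoRNAs, was at 74.7, 82.5, 77.3 and 68.2 CPM in polyA control and at 13.1, 14.8, 12.98 and 17.8 CPM in Ago2-IP control. It was at 77.9, 37.8, 60.0 and 38.4 CPM in polyA miR-106b and at 14.0, 17.4, 13.9 and 11.6 CPM in Ago2-IP miR-106b. Every Ago2-IP library was below every polyA library, and polyA miR-106b replicate 1 alone lay within the range of polyA control. The Ago2:polyA difference was -2.04 on the log2 scale in control cells (SE 0.189, adjusted p = 2.06e-09, edgeR's test), a level 4.11-fold lower, and -1.77 in miR-106b cells (SE 0.199, adjusted p = 5.96e-07). In polyA RNA the miR-106b effect was -0.47 (SE 0.194, adjusted p = 0.0702), which did not pass, and without polyA miR-106b replicate 1 it was -0.64 (adjusted p = 0.00296, edgeR).

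Snhg8 fell with miR-106b in polyA RNA and its depletion in Ago2-IP became smaller. Snhg8 (ENSMUSG00000104960, chromosome 3, 123507552 to 123508404), the host of Snora24, was at 31.3, 29.6, 29.4 and 25.5 CPM in polyA control and at 16.2, 16.01, 23.3 and 18.5 CPM in polyA miR-106b. The groups did not overlap, and the log2 change of Snhg8 was -0.63 (SE 0.144, adjusted p = 0.00417, edgeR's test), a level 1.55-fold lower. In Ago2-IP it was at 6.28, 6.70, 5.41 and 8.23 CPM in control and at 9.69, 8.69, 8.42 and 7.85 CPM with miR-106b, where the groups overlapped and the difference of 0.36 did not pass (SE 0.252, adjusted p = 0.915). The Ago2:polyA difference was -1.79 in control cells (SE 0.163, adjusted p = 7.91e-10) and -0.94 in miR-106b cells (SE 0.172, adjusted p = 0.000106), and the change between them, 0.85, passed the test of the interaction (SE 0.240, adjusted p = 0.00997, edgeR's test on 16 libraries). The interaction was 0.95 with an adjusted p of 0.112 (edgeR) when the 4 Ago2-IP libraries above 5000 CPM of Gm10800 were left out, which leaves 1 Ago2-IP miR-106b library whose spread is assumed to be that of the other groups.

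Snhg12 and Epb41l4aos were lower in Ago2-IP of control cells too, at lower counts. Snhg12 (ENSMUSG00000086290, chromosome 4, 132308678 to 132311024, a lincRNA) was at 15.4, 18.6, 18.9 and 14.4 CPM in polyA control and at 22.8, 8.14, 18.7 and 13.5 CPM in polyA miR-106b. It was at 4.85, 3.35, 4.60 and 5.20 CPM in Ago2-IP control and at 4.27, 3.48, 2.91 and 3.49 CPM in Ago2-IP miR-106b. The Ago2:polyA difference was -1.58 in control cells (SE 0.251, adjusted p = 5.73e-06, edgeR's test) and -2.02 in miR-106b cells (SE 0.282, adjusted p = 6.62e-06), and the miR-106b effect in polyA RNA was -0.06 (SE 0.246, adjusted p = 0.862), with polyA miR-106b replicate 1 above all and replicates 2 and 4 below all control libraries.

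Epb41l4aos (ENSMUSG00000087590, chromosome 18, 33794892 to 33795986, a lincRNA) was at 7.46, 8.99, 9.40 and 9.31 CPM in polyA control and at 7.46, 4.46, 5.74 and 3.91 CPM in polyA miR-106b. Its fall of 0.65 on the log2 scale passed the test (SE 0.228, adjusted p = 0.0364, edgeR), although replicate 1 of both groups had nearly the same level, and it did not pass in 7 of the 8 fits without 1 polyA library, at up to an adjusted p of 0.0954 (edgeR) without polyA miR-106b replicate 2. In Ago2-IP it was at 1.43, 2.79, 2.70 and 1.95 CPM in control and at 2.33, 4.06, 2.27 and 3.78 CPM with miR-106b, from 5 to 14 counts per library. The Ago2:polyA difference was -1.66 in control cells (SE 0.284, adjusted p = 1.51e-05) and -0.64 in miR-106b cells (SE 0.302, adjusted p = 0.0844), and their difference of 1.02 did not pass (SE 0.423, adjusted p = 0.0763). With library size only both passed, at -0.79 (adjusted p = 0.0315, edgeR) and 1.18 (adjusted p = 0.0364), as they did with TMM within each RNA kind.

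Small RNA genes within exons of the hosts that have a row in the count table had no counts. Of 20 snoRNA and miRNA genes that lie inside an annotated exon of such a host (9 in Gas5, 4 in Snhg12, 1 in Snhg8 and 6 in Mir17hg), 0 had a count in any library. The snoRNA in Epb41l4aos, Gm23639, lies outside its exons and had 144 counts, with 0, 0, 3 and 29 in Ago2-IP control and 18, 52, 12 and 1 in Ago2-IP miR-106b. The 8 snoRNA genes of Snhg1 also lie in exons of their host, for which no row was matched, and 7 of the 8 had counts, of which Snord22 made up 2771 of 2825. Snord22 was at 3.71, 7.54, 71.4 and 151 CPM in Ago2-IP control and at 108, 164, 85.8 and 18.3 CPM in Ago2-IP miR-106b, against 13.6 to 16.7 CPM in polyA control and 5.49 to 22.7 CPM in polyA miR-106b. Snord22 and Gm23639 thus varied between Ago2-IP libraries far more than Epb41l4aos, the host of Gm23639, which ranged from 1.43 to 4.06 CPM. Gas5, the host of neither, stayed between 11.6 and 17.8 CPM. The libraries were made from chemically fragmented RNA, and how the counting treated overlapping genes is not given in the sources used here, so a count of 0 does not show whether a small RNA was made.

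Both miRNA hosts had few counts, and Mir17hg was close to the limit of detection. Dleu2 (ENSMUSG00000097589, chromosome 14, 61602839 to 61682373) was at 2.22, 4.97, 8.03 and 4.57 CPM in polyA control and at 5.05, 4.46, 5.74 and 6.04 CPM in polyA miR-106b. It was at 4.00, 3.63, 5.41 and 10.6 CPM in Ago2-IP control and at 3.49, 5.51, 3.88 and 3.78 CPM in Ago2-IP miR-106b, where control replicate 4 was again the highest. No comparison passed, with log2 differences of 0.11 for miR-106b in polyA RNA (SE 0.335, adjusted p = 0.812, edgeR's test) and 0.60 for Ago2:polyA in control cells (SE 0.334, adjusted p = 0.113). The latter was 0.28 with library size only, and without polyA control replicate 3 it was 0.92 and passed (adjusted p = 0.0233, edgeR). Trim13 and Kcnrg lie on the other strand of its locus, and without strand their reads cannot be told apart from those of Dleu2 where they overlap.

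Mir17hg (ENSMUSG00000089726, chromosome 14, 115042879 to 115046727, a lincRNA) passed the filter on low counts through polyA control alone. It had 10, 15, 9 and 6 counts in polyA control, 0, 2, 3 and 2 in polyA miR-106b, 0, 0, 1 and 3 in Ago2-IP control and 4, 4, 0 and 1 in Ago2-IP miR-106b. Every polyA miR-106b library was below every polyA control library. A library with 0 counts allows up to 3 counts. Since polyA control is the group that admitted Mir17hg, and is high by that choice, its calls against that group support nothing.

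Few of the 9 RNAs were called with miR-106b. In polyA RNA, miR-106b changed 2 of the 9 RNAs past edgeR's threshold (adjusted p under 0.05), Snhg8 and Epb41l4aos, both lower, where 40.5% of the 14897 genes tested were called and 21.5% were lower. Besides Mir17hg, which entered through its high control group, Snhg8 alone was lower without overlap with the control, where 22.0% of all genes had that pattern. In Ago2-IP RNA, 0 of 8 were called between miR-106b and control, and edgeR called 0% of all genes, with 827 genes at an unadjusted p under 0.05. No one of those 8 had groups without overlap there, where 1.58% of all genes did so upward and 1.66% downward. Between Ago2-IP and polyA RNA of control cells 5 of 7 were called without Mir17hg, where 69.7% of all genes were: 4 were lower (background 34.6%) and Neat1 was higher (35.1%). Those 5 were also the members, Mir17hg apart, whose libraries did not overlap, where 26.1% of all genes were higher and 44.5% lower in that way. In miR-106b cells 4 of 8 were called against 46.4% of all genes, Gas5, Snhg8 and Snhg12 lower (24.4%) and Neat1 higher (21.9%), and those 3 lower RNAs had groups without overlap, as had 25.7% of all genes. For 1 of 8, Snhg8, the Ago2:polyA ratio rose with miR-106b, where 27.3% of all genes were called, 7.62% upward and 19.7% downward. These Ago2:polyA values come from a scaling under which the median of all genes was -0.03 on the log2 scale in control cells, and with library size only that median was -0.35. The 2 Ago2:polyA comparisons have no library in common, though 1 fit of all 16 libraries gave both. The interaction uses the libraries of both, so its values are not independent of theirs.

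**Figure D3:**
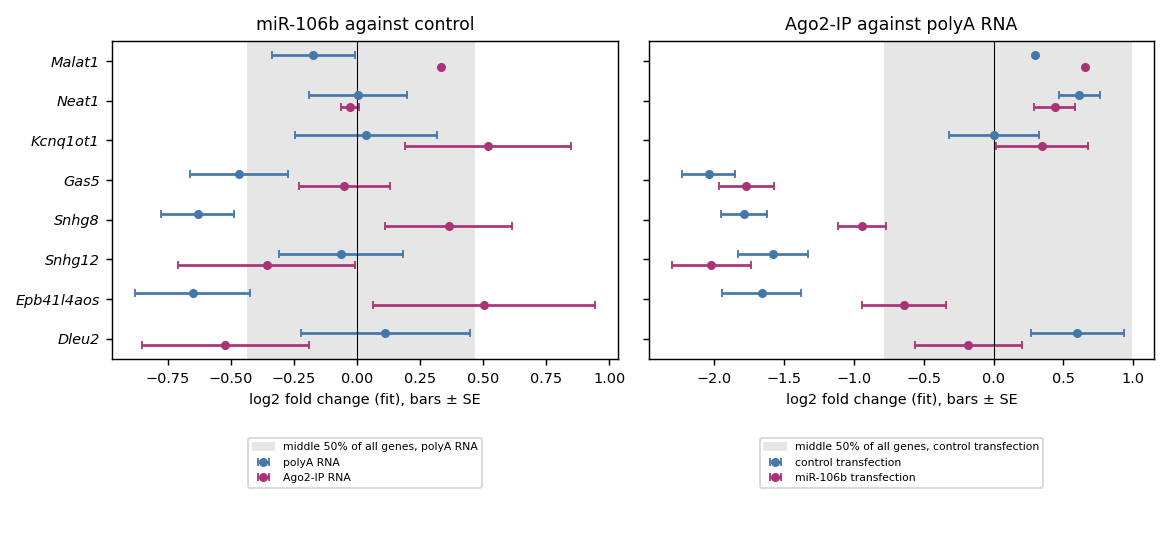
Fitted log2 fold changes with SE for miR-106b against control (left, in polyA and Ago2-IP RNA) and for Ago2-IP against polyA RNA (right, in control and miR-106b cells). The gray band holds the middle 50% of all genes in polyA RNA (left) and in control cells (right), points of Malat1 without bars are descriptions, and Mir17hg is not drawn. Gas5, Snhg8 and Snhg12 lie left of the band on the right in both transfections, Epb41l4aos does so in control cells (-1.66) and lies within it in miR-106b cells (-0.64), and Neat1 lies at 0.61 and 0.44.

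Other snoRNA hosts moved in both directions, more of them lower. In polyA RNA 5 of 10 other snoRNA hosts tested fell with miR-106b and 1 rose, where 21.5% of all genes fell and 19.0% rose, with a median log2 change of -0.67 against -0.05 over all genes. Snhg17 fell by 1.30 (SE 0.331, adjusted p = 0.0104, edgeR's test), 1500012F01Rik by 0.76 (SE 0.222, adjusted p = 0.0156) and Snhg20 by 0.85 (SE 0.182, adjusted p = 0.00293), while Rnu12, a spliceosomal RNA locus, was at 0.22 (adjusted p = 0.559). Snhg4 (-1.58) and Snhg5 (-0.84) also fell and Snhg18 (1.19) rose, all 3 named after their values were seen. In Ago2-IP against polyA RNA of control cells 7 of 10 were lower and 2 higher (34.6% and 35.1% of all genes), with a median of -1.54 against -0.03, and Snhg17 was lower by 2.33, 1500012F01Rik by 2.39 and Snhg20 by 1.20 on the log2 scale. Snhg18 (2.38) and Rnu12 (0.62), counted among the 10 although it is a spliceosomal RNA locus, were the 2 higher. With DESeq2 size factors 1 was higher and 7 lower, where 34.6% and 35.3% of all genes were. Library size only also gave 1 and 7, where 27.8% and 45.5% were. TMM within each RNA kind gave 1 and 7 too, where 28% and 45.2% were. With miR-106b the ratio rose for 3 of the 10, Snhg17, Snhg20 and 1500012F01Rik, and fell for Snhg18, where 7.62% of all genes rose and 19.7% fell. Of the 10 mRNAs tested here for proteins that bind snoRNAs or help to build their particles, 8 were lower with miR-106b in polyA RNA (median -0.90, against 21.5% of all genes lower) and 10 were lower in Ago2-IP of control cells (median -1.07, against 34.6%). Nop56, a core protein of box C/D particles, fell by 1.19 (SE 0.175, adjusted p = 0.000682), Fbl, their methyltransferase fibrillarin, by 0.92, Nhp2, a box H/ACA protein, by 0.96, and Nhp2l1 by 0.44 on the log2 scale in polyA RNA. Of 10 factors of nonsense-mediated decay, 2 fell with miR-106b in polyA RNA, near the 21.5% of all genes that fell, Smg5 by 0.47 (adjusted p = 0.00513) and Smg1, named after its value was seen, by 0.91 (adjusted p = 0.00121), while Upf1, the central helicase, was at -0.21 (adjusted p = 0.103) and Smg6 at -0.05, and 5 of 10 were lower in Ago2-IP (34.6% of all genes), or 9 with library size only (45.5% of all genes). Under the other scalings tried (DESeq2 size factors, library size only and, for Ago2:polyA, TMM within each RNA kind) the median of none of these 3 lists changed sign.

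**Figure D4:**
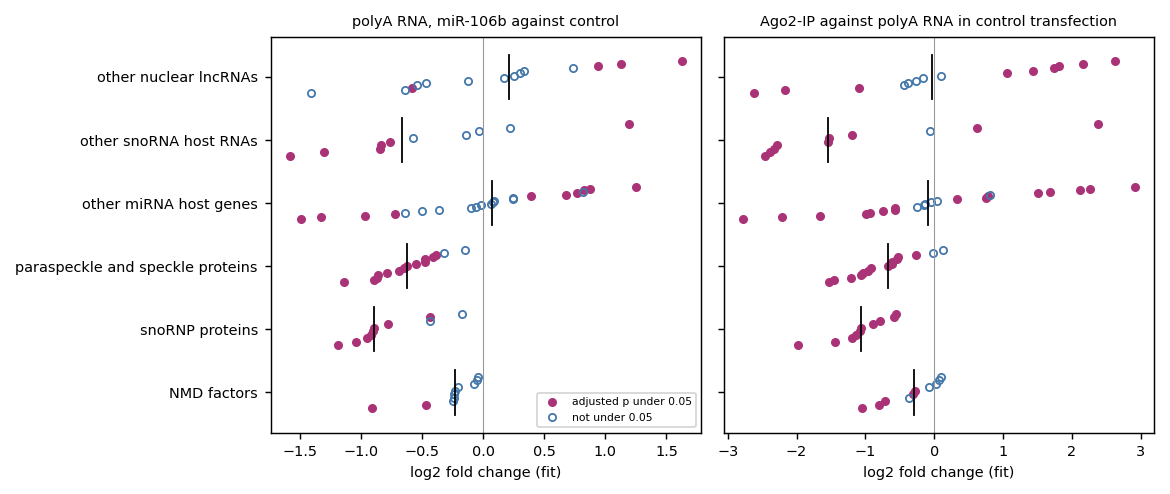
Fitted log2 fold change of each tested gene (points, filled where the adjusted p was under 0.05) in 6 gene lists around these RNAs, for miR-106b in polyA RNA (left) and for Ago2-IP against polyA RNA in control cells (right), with the median of each list as a line. The medians of other snoRNA hosts are -0.67 and -1.54, and those of other nuclear long RNAs are 0.21 and -0.03.

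Other nuclear long RNAs were called in both directions. Of 14 tested, 3 rose and 1 fell with miR-106b in polyA RNA, and 6 were higher and 3 lower in Ago2-IP than in polyA RNA of control cells, or 6 and 5 with library size only. Over all genes 19.0% rose and 21.5% fell with miR-106b, and 35.1% were higher and 34.6% lower in Ago2-IP, or 27.8% and 45.5% with library size only. Meg3, an imprinted RNA, rose by 1.13 (SE 0.212, adjusted p = 0.00145, edgeR's test) and was higher in Ago2-IP by 2.16 on the log2 scale, and Peg13, also imprinted, rose by 0.94 and was higher in Ago2-IP by 1.81. Named after their values were seen, Rian (1.63) was the other that rose and Firre (-0.59) the one that fell, which did not pass with DESeq2 size factors, and Pvt1 (-2.61), Nespas (-2.17) and Trp53cor1 (-1.09) were the 3 lower in Ago2-IP with TMM. Tug1 was at -0.13 and -0.38 and 2900097C17Rik at 0.30 and 1.05 in these comparisons, where only the last value passed (adjusted p = 1.17e-05). The mRNAs of 15 paraspeckle and speckle proteins fell in 13 cases with miR-106b in polyA RNA (median -0.62) and were lower in 13 cases in Ago2-IP (median -0.67), and with miR-106b their Ago2:polyA ratio rose for 7, where 7.62% of all genes rose. Srrm2, a core speckle protein, fell by 0.48 (adjusted p = 0.0102, edgeR's test) and Srrm1 by 0.39, whereas Son was at -0.15 (adjusted p = 0.251). Neat1 itself differed by 0.00 and Malat1 by -0.17 in the same libraries, neither past the threshold.

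Host genes of other miRNAs were called in both directions. Of 22 tested, 6 rose and 4 fell with miR-106b in polyA RNA, where 19.0% of all genes rose and 21.5% fell, and 8 were higher and 8 lower in Ago2-IP of control cells, where 35.1% of all genes were higher and 34.6% lower. With library size only 6 were higher and 12 lower, where 27.8% of all genes were higher and 45.5% lower. Ctdsp1, a phosphatase gene, rose by 0.39 (adjusted p = 0.016, edgeR's test) and Srebf2, a regulator of sterol synthesis, fell by 0.97 (adjusted p = 0.00136), while Ctdsp2 was at 0.09 and Dnm2 at -0.10. The other 3 that fell, named after their values were seen, were Mcm7 (-1.49, adjusted p = 0.00159), a DNA replication gene whose intron holds the miR-106b hairpin itself, Smc4 (-1.33) and Pank3 (-0.72). Of 14 tested genes next to or overlapping the members, 2 rose and 2 fell in polyA RNA, below the 19.0% and 21.5% of all genes: Ltbp3 was at 0.32 (adjusted p = 0.383), Slc3a2 at -0.30, and Kcnq1, given above, rose. Cdkn1c (1.09), a cell cycle inhibitor gene in the imprinted domain of Kcnq1ot1, was the other that rose, and Wdr74 (-0.80), next to Snhg1, and Frmd8 (-0.53) fell, all 3 named after their values were seen. Of 5 tested small RNA genes without a polyA tail 0 passed edgeR's test in polyA RNA, at -0.25 for Rmrp, 0.09 for Rpph1 and -0.50 for Rn7sk, while Rpph1 and Rmrp were higher in Ago2-IP of control cells (3.46 and 2.17), and these 2, Rny1 and Rny3 in that of miR-106b cells. For both, Ago2-IP control replicates 1 and 2 lay below all polyA control libraries and replicates 3 and 4 above them, so the groups overlapped. With library size only 1 was higher and 1 lower in control cells, against 27.8% and 45.5% of all genes.

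The markers of other cell types moved with the same contrasts. Myh6, which encodes a heavy chain of cardiac myosin, rose by 1.24 with miR-106b in polyA RNA (SE 0.219, adjusted p = 0.00107, edgeR's test) and was higher in Ago2-IP of control cells by 2.30. Of 12 endothelial and blood markers 11 rose with miR-106b in polyA RNA and 12 were higher in Ago2-IP of control cells, where 19.0% and 35.1% of all genes were. Over all genes 21.5% fell with miR-106b and 34.6% were lower in Ago2-IP. Of 8 JG and mural markers tested 5 rose and Tagln fell by 0.48 with miR-106b in polyA RNA, while 5 were higher and 3 lower in Ago2-IP of control cells. Of 4 kidney epithelial markers Lrp2 fell by 1.07 and 0 rose in polyA RNA, while in Ago2-IP of control cells 3 were lower, Cdh16 at -5.47, Pax2 at -4.07 and Lrp2 at -3.38 on the log2 scale. These 3 values rest on few Ago2-IP control counts. Replicates 1 to 4 had 3, 6, 11 and 26 for Cdh16, 1, 2, 11 and 24 for Pax2 and 0, 5, 1 and 14 for Lrp2. The fourth, Aqp1, was at 0.06 there (adjusted p = 0.627, edgeR's test), with 403 to 423 CPM in polyA control and 329 to 361 CPM in Ago2-IP control. In polyA miR-106b the summed cardiac level was 37414, 64767, 46844 and 62728 CPM in replicates 1 to 4. Over the same libraries the other snoRNA hosts summed to 82.1, 88.2, 118 and 68.9 CPM, against 145 to 164 CPM in polyA control. The part of the cardiac transcripts in the lower level of snoRNA hosts was not tested. In bulk RNA, fewer cells that express a gene and less of its RNA per cell cannot be told apart.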

How the data were processed

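PolyA RNA and Ago2-IP RNA of transfected JG cells were measured in 16 libraries, 4 per group, and groups were taken from the labels. The authors removed ribosomal reads, aligned single-end reads without strand to GRCm38 with TopHat2 (version 2.0.10 in the submitters' processing notes) and counted them on genes with HTSeq. The deposited values are raw counts, with no normalization or filter. Their sums were 2579086 to 9459585 per library, and 197 of 46078 rows have no symbol.

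Here, 14897 genes were kept, those that reached 1 CPM in 3 or more of 4 replicates for some group, and were scaled by TMM and compared with the quasi-likelihood F test of edgeR 4.0.16 (robust, two-sided, R 4.3.3), with Benjamini-Hochberg adjustment over all genes and a threshold of 0.05. The miR-106b comparisons used the 8 libraries of their RNA kind, and Ago2:polyA comparisons and their interaction all 16. Levels per library are CPM scaled to library size only, and fold changes are from the TMM fits. Replicates differed by more than counting noise in every group, and libraries sharing a replicate number did not deviate together (correlations of -0.386 to 0.218). Per-length levels and overlaps used GENCODE M21 exons, whose models may differ from those counted. All members are named, and of each of the 12 lists at most the 4 genes of highest mean CPM, besides genes named after their values were seen and without a few that are not reported here; the members and lists were chosen with earlier results of these data known. Alternatives were DESeq2 1.42.0 (size factors, Wald test), library size only, other filters, a likelihood ratio test, a replicate block, other library sets and each library left out.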

Additional observations from a re-analysis of the deposited data

Results flagged for a closer look

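Dixon's test was applied to the 4 libraries of each group for each of the 9 RNAs, without the Ago2-IP groups of Malat1, which was chosen for its spread there. Of these 34 groups, of which chance flags about 1 in 20, 3 had a library standing apart. Neat1 was at 1067 CPM in polyA control replicate 4, against 941 to 946 CPM in the others, and Kcnq1ot1 was at 71.3 CPM in the same library, against 59.7 to 61.6 CPM. Neat1 was at 1131 CPM in Ago2-IP miR-106b replicate 3, against 1183 to 1187 CPM, a gap that is small as a share of its level. The effect of miR-106b on Snhg8 differed between RNA kinds. The change was 0.85 on the log2 scale (SE 0.240, adjusted p = 0.00997, edgeR's interaction test on 16 libraries). In separate fits on the 8 libraries of each RNA kind, the difference was -0.63 in polyA RNA and 0.36 in Ago2-IP RNA. The value of 0.85 is not computed from these separate fits.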

How the results depend on the processing

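In polyA RNA the number of the 9 RNAs called with miR-106b was 2. It was 1 with DESeq2 size factors, DESeq2's Wald test or all 16 libraries in 1 fit, 4 with the likelihood ratio test (Gas5 added, and Mir17hg, which polyA control admitted and whose call supports nothing), and 1 to 3 with 1 library left out. Snhg8 passed in all 17 alternatives, and Epb41l4aos did not pass in 12. For Ago2:polyA in control cells it was 6, Mir17hg included, and 3 where at least 10 counts in every library were required, which leaves 4 of the 8 tested, and 5 to 7 without 1 library. It was 5, without Neat1, with library size only or TMM within each RNA kind. In miR-106b cells the same scalings kept it at 4 but called Epb41l4aos in place of Neat1. For the change of the ratio it was 1, 2 with library size only or TMM within each RNA kind, 3 with the likelihood ratio test (Mir17hg included), 1 to 3 without 1 library, and 0 without the 4 Ago2-IP libraries above 5000 CPM of Gm10800, an alternative chosen after seeing the data. Scaling by library size only moved the share of all calls that were higher from 50.3% to 37.9% for Ago2:polyA in control cells, from 47.3% to 34.0% in miR-106b cells and from 27.9% to 46.3% for the change of the ratio, and fitting all 16 libraries moved it from 47.0% to 61.4% for miR-106b in polyA RNA. The cause of these changes was not tested.

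Differences near 0 changed sign. In polyA RNA with miR-106b, Neat1 was at -0.015 with library size only and -0.049 with the replicate block, Kcnq1ot1 at -0.066 with the replicate block and Snhg12 at 0.062 with all 16 libraries. For Ago2:polyA in control cells Kcnq1ot1 was at -0.017 with DESeq2 size factors, -0.022 with DESeq2's Wald test, -0.31 with library size only, -0.17 without a filter, -0.034 with at least 10 counts, -0.0033 with the replicate block and -0.30 with TMM within each RNA kind. Without the Gm10800-rich libraries Kcnq1ot1 was at -0.22 in that comparison, -0.42 in miR-106b cells, -0.20 for the change of the ratio and -0.13 between Ago2-IP groups, and Mir17hg was at -0.54 in miR-106b cells. With 1 library left out, the miR-106b effect in polyA RNA ranged from -0.31 to 0.029 for Malat1, -0.11 to 0.27 for Neat1, -0.28 to 0.36 for Kcnq1ot1, -0.25 to 0.16 for Snhg12 and -0.037 to 0.43 for Dleu2. In the same fits Gas5 ranged from -0.17 to 0.064 within Ago2-IP, Kcnq1ot1 from -0.11 to 0.18 for Ago2:polyA in control cells and Neat1 from -0.36 to 0.026 for the change of the ratio. No value that changed sign passed the threshold, while Neat1 passed for the change of the ratio without polyA miR-106b replicate 1 (-0.36, adjusted p = 0.0371, edgeR).

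Replicate numbers are shared by name only. With the replicate block the calls in polyA RNA were 2, Gas5 (adjusted p = 0.037, edgeR) and Snhg8, with Epb41l4aos at 0.0676, and the block changed no other call of these RNAs. Dleu2 passed for Ago2:polyA in control cells without polyA control replicate 3 (0.92, adjusted p = 0.0233, edgeR). Depth limits Mir17hg, Dleu2 and Epb41l4aos most.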
